A study of Mus musculus with 4 samples.

Results

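The genes described here are 10 members of the interleukin-1 (IL-1) and inflammasome system: Il1a, Il1b, Il1rn, Il18, Casp1, Casp4, Nlrp3, Nlrc4, Aim2 and Pycard. They were taken by name after the transcript values were summed per gene, and all 10 were found among the 24235 genes of the tables. Bone marrow of 7 weeks old C57BL/6 mice had been cultured with M-CSF, the growth factor that turns its precursors into macrophages. Messenger RNA was sequenced in 4 libraries: labelled Sema6D-/- with LPS, labelled Sema6D-/- without LPS, wild type (WT) with LPS and WT without LPS. LPS (lipopolysaccharide, a bacterial cell wall component) was given at 100 ng/ml for 4 h. LPS stands in the treatment text of all samples, so the libraries titled "non" were read as unstimulated from their titles. With 1 library in each group, differences lack a replicate check and no test across libraries was made. The labels do not say how many animals a library holds or which part of Sema6d was deleted.

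IL-1 alpha and IL-1 beta are cytokines that act on the same receptor and drive fever, leukocyte recruitment and further cytokine release. IL-1 beta and IL-18 are made as inactive precursors. Inflammasomes are protein platforms in which a sensor such as NLRP3, NLRC4 or AIM2 recruits the adaptor ASC (Pycard) and activates caspase-1 (Casp1), which cuts both precursors and the pore-forming protein gasdermin D. In macrophages, LPS is known to prime this system by raising the transcripts of Il1b and Nlrp3, and maturation and release need a further signal that mRNA does not show.

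Levels are in FPKM, a fragment number corrected for transcript length and library depth, so they can be compared between genes. Estimated depth was 17.3 to 23.5 M fragments per library, and 9682 to 10057 genes reached 1 FPKM. Square brackets after a log2 ratio hold the 95% counting interval from estimated fragment numbers, which covers counting error only. Such ratios use FPKM as deposited. Il1rn intervals pool fragments of 3 transcripts of unlike length, and so only approximate the counting error of its summed FPKM. Where no brackets follow, 1 FPKM had been added to both values, which understates the ratios of low genes. Every genotype ratio has WT as its denominator. Sema6d measured 0.563 to 0.592 FPKM in the libraries labelled Sema6D-/-, against 0.219 to 0.304 FPKM in WT, the opposite direction to the label. Xist, the RNA that silences an X chromosome in females, was at 0.0306 to 0.0333 FPKM in the libraries labelled Sema6D-/- and at 21.4 to 22.3 FPKM in WT, and the Y-linked Ddx3y was at 13.2 to 16.6 FPKM in the libraries labelled Sema6D-/- while WT stayed at or below 0.00729 FPKM. Genotype and sex therefore cannot be told apart in any comparison between the genotypes.

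Marker genes described the cells. All 8 macrophage markers were above 1 FPKM in every library, among them Adgre1 (715 to 1118 FPKM) and Csf1r (644 to 1049 FPKM). With LPS, 1 of them was at least 2-fold higher in the library labelled Sema6D-/- and 1 as far lower. These were Mertk (61.3 FPKM against 14.9 FPKM in WT) and Itgam (265 FPKM against 538 FPKM in WT). Without LPS 0 were higher and 0 lower by that size. Lymphocyte, mast cell and stromal markers stayed at or below 0.473 FPKM, and of 5 dendritic cell markers only Ccr7 passed 1 FPKM (4.19 FPKM in the LPS library labelled Sema6D-/- and 1.06 FPKM in WT with LPS). The 10 neutrophil and granule markers summed to 365 FPKM with LPS and 237 FPKM without in the libraries labelled Sema6D-/-, against 1278 FPKM with LPS and 835 FPKM without in WT. With LPS 8 of 10 and without LPS 10 of 10 were lower by any amount in the library labelled Sema6D-/-, and none was at 0 in all libraries. Of the 9 at 1 FPKM or more, with 1 FPKM added, 6 were at least 2-fold lower with LPS and 5 without. None of the 9 was as far higher in either state. Over all genes 3.18% were lower by that size with LPS and 2.19% without. The neutrophil marker Ly6g stayed at or below 0.450 FPKM in all libraries. The 4 monocyte markers summed to 685 and 302 FPKM with and without LPS in the libraries labelled Sema6D-/-, and to 477 and 193 FPKM in WT. The part of these marker differences in the genotype ratios below was not tested. In bulk RNA, fewer cells of a type and less RNA per cell cannot be told apart.

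Promoter sequences are shown for the pair of cytokine genes with the highest LPS ratios, for Casp4, and for both start regions of Il1rn. Each is the 250 bases before the start site, 5′ to 3′ on the gene's strand, from RefSeq on build GRCm38.p6; the FPKM values came from build mm9, and only names and sequences were taken from the newer build. Capitals mark matches, on either strand, to TATAAA (the TATA box), to TGANTCA (the AP-1 site) and to the NF-kB consensus. Windows are chr2:129309973-129310222 (minus strand) for Il1a, chr2:129371140-129371389 (minus strand) for Il1b, chr9:5308599-5308848 (plus strand) for Casp4, chr2:24345041-24345290 (plus strand) for the downstream Il1rn start and chr2:24336610-24336859 (plus strand) for the upstream Il1rn start.
Il1a: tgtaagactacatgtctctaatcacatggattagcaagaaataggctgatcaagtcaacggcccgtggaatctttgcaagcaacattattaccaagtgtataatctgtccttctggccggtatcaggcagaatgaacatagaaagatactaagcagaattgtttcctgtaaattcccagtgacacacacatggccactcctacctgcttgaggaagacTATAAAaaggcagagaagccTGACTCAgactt
Il1b: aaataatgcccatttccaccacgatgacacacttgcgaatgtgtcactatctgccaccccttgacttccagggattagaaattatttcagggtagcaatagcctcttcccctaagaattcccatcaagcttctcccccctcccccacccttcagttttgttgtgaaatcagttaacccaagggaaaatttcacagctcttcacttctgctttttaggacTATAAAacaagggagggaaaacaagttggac
Casp4: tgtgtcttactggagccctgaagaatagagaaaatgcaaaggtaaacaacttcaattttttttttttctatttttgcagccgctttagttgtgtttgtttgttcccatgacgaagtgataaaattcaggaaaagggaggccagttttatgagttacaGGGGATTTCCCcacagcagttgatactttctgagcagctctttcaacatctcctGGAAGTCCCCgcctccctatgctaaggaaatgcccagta
Il1rn downstream start: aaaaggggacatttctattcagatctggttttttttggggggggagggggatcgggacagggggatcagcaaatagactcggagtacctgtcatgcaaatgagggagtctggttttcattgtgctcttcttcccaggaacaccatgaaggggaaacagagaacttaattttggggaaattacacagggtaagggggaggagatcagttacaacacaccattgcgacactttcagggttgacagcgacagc
Il1rn upstream start: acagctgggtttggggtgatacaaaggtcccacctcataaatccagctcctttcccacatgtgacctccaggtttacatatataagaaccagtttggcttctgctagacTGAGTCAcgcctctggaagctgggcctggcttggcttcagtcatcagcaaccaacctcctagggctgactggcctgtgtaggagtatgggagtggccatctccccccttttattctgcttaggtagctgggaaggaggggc

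Il1a and Il1b carried TATAAA at almost the same place, from 32 to 27 and from 31 to 26 bases before the start. No other member window searched had it, and 12.4% of all 32851 promoter windows of that length did. Il1a also had an AP-1 match from 12 to 6 bases before its start, and the upstream start of Il1rn had one from 141 to 135 bases before; 6.75% of all windows had such a match. The NF-kB consensus matched in Casp4 from 93 to 84 bases before the start, with an overlapping match 1 base further on, and again from 39 to 30 bases before. It was found in 7.25% of all windows and in no other member window searched. A match describes these letters only.

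**Figure D1:**
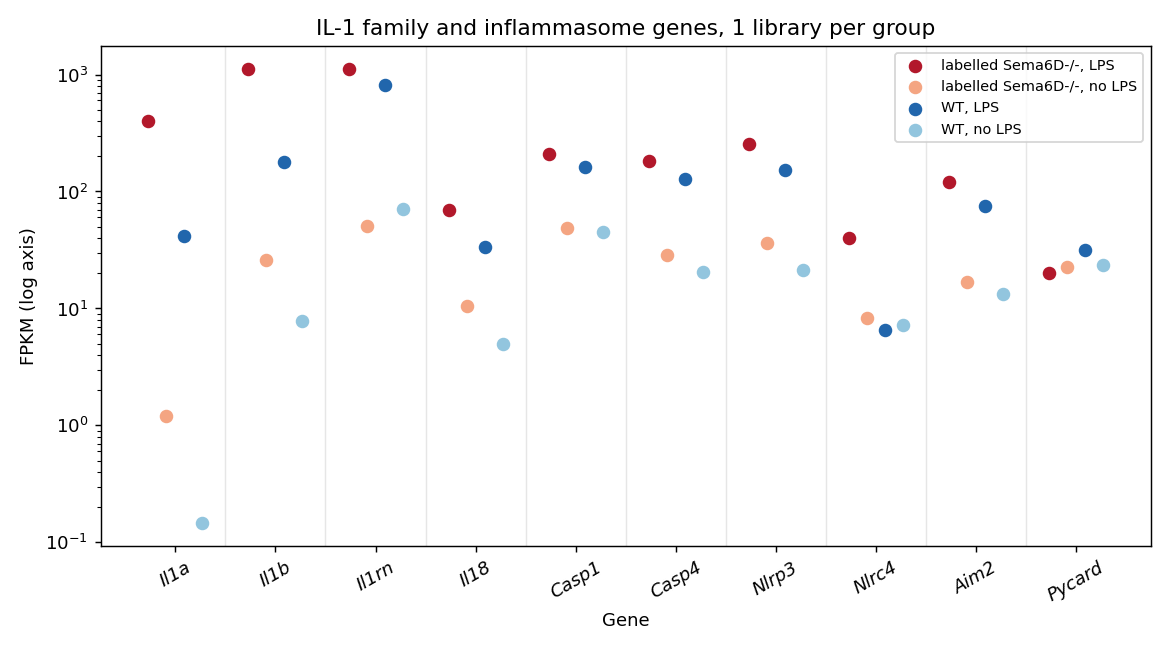
Level of each gene in FPKM (log axis) in the 4 libraries, 1 point per library; colours mark the library labelled Sema6D-/- with LPS, the one without LPS, WT with LPS and WT without LPS. Il1rn was the highest of the 10 genes in every library, though nearly level with Il1b (ratio 1.01) in the LPS library labelled Sema6D-/-. Il1a spanned 0.146 to 403 FPKM, and Pycard stayed between 20.3 and 31.6 FPKM.

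Il1a, which encodes the cell-associated cytokine IL-1 alpha, had the widest range of the 10 genes. It measured 403 FPKM (11851 fragments) with LPS and 1.21 FPKM (48 fragments) without LPS in the libraries labelled Sema6D-/-. In WT it measured 41.4 FPKM (1467 fragments) with LPS and 0.146 FPKM (8 fragments) without. Both LPS libraries lay far above both unstimulated ones, and the LPS library labelled Sema6D-/- was the highest. The LPS ratios were 8.38 [7.98, 8.82] in the libraries labelled Sema6D-/- and 8.15 [7.16, 9.36] in WT on the log2 scale. Their difference was 0.24 [-0.85, 1.32], so no difference of the responses was detectable at this depth; it read 2.31 with 1 FPKM added and 0.87 with 0.1 FPKM added. Between genotypes the log2 ratio was 3.28 [3.20, 3.36] with LPS and 3.05 [1.95, 4.34] without.

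Il1b, which encodes the secreted cytokine IL-1 beta, measured 1110.3 FPKM with LPS and 26.1 FPKM without in the libraries labelled Sema6D-/-. In WT it measured 177 FPKM with LPS and 7.88 FPKM without. Among genes at 1 FPKM or more it stood at percentile 99.3 in the LPS library labelled Sema6D-/-, and at 95.1 in the WT library with LPS. The LPS ratio was 42.5-fold (log2 5.41 [5.30, 5.52]) in the libraries labelled Sema6D-/- and 22.5-fold (4.49 [4.32, 4.67]) in WT. The response was larger in the libraries labelled Sema6D-/- by 0.92 [0.71, 1.13] on the log2 scale. Between genotypes the log2 ratio was 2.65 [2.60, 2.69] with LPS and 1.73 [1.52, 1.93] without. In each state the summed monocyte markers lay, like Il1b, higher in the library labelled Sema6D-/- than in WT, and the summed neutrophil markers lower.

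Il18, which encodes the precursor of IL-18, a cytokine that promotes interferon gamma production, was lower than Il1b in every library. It measured 70.1 FPKM with LPS and 10.6 FPKM without in the libraries labelled Sema6D-/-, and 33.7 FPKM with LPS and 4.98 FPKM without in WT. Its log2 LPS ratios were close, at 2.73 [2.48, 2.99] in the libraries labelled Sema6D-/- and 2.76 [2.44, 3.09] in WT. The level was about 2-fold higher in the libraries labelled Sema6D-/- than in WT in both states, with log2 ratios to WT of 1.05 [0.88, 1.23] with LPS and 1.09 [0.71, 1.46] without. These rested on 767 and 154 fragments in the libraries labelled Sema6D-/- and on 440 and 99 in WT.

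Il1rn, which encodes the IL-1 receptor antagonist, had the highest FPKM of the 10 genes in all 4 libraries. In the LPS library labelled Sema6D-/- it was nearly level with Il1b, at a ratio of 1.01. It measured 1122 FPKM with LPS and 50.7 FPKM without in the libraries labelled Sema6D-/-, and 806 FPKM with LPS and 70.5 FPKM without in WT. Its genotype ratio turned between the states, at 0.48 [0.45, 0.50] with LPS and -0.48 [-0.57, -0.38] without on the log2 scale. The brackets of Il1rn pool fragments of transcripts of 728 to 2474 bases and are approximate. The LPS ratio was 4.47 [4.39, 4.55] in the libraries labelled Sema6D-/- and 3.52 [3.46, 3.57] in WT, a difference of 0.95 [0.86, 1.05]. Counting only the most abundant transcript, with 1 FPKM added, gave 4.94 in the libraries labelled Sema6D-/- and 3.12 in WT. The difference was then 1.82, outside that interval, which covers counting error only and is approximate.

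The antagonist did not keep step with the agonist across the genotypes. The ratio of Il1rn to Il1b in FPKM was 1.01 [0.993, 1.03] with LPS and 1.94 [1.77, 2.13] without in the libraries labelled Sema6D-/-. In WT it was 4.54 [4.39, 4.70] with LPS and 8.94 [7.91, 10.1] without. It was lower with LPS than without in each genotype, and lower in the libraries labelled Sema6D-/- than in WT in each state. The counting intervals did not overlap, though they are approximate for Il1rn. Against Il1a and Il1b together, Il1rn stood at 0.742 with LPS and 1.86 without in the libraries labelled Sema6D-/-, and at 3.68 with LPS and 8.78 without in WT. Il1b exceeded Il1a 2.76 times with LPS and 21.6 times without in the libraries labelled Sema6D-/-, and 4.28 times with LPS and 54.0 times without in WT.

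Il1rn was the only member with several transcript variants in the tables, and its 2 downstream-start variants carried nearly all of its level. The variant with the upstream start (NM_031167) held 1.29% of the summed FPKM with LPS and 3.45% without in the libraries labelled Sema6D-/-, and 4.91% with LPS and 1.69% without in WT. Of the downstream variants, NM_001039701 held 71.9% with LPS and 49.9% without in the libraries labelled Sema6D-/-, and 62.4% with LPS and 80.7% without in WT. Its own level without LPS was 25.3 FPKM in the library labelled Sema6D-/- and 56.9 FPKM in WT. NM_001159562 was the other way round, at 23.7 FPKM in the library labelled Sema6D-/- and 12.4 FPKM in WT, so of the downstream variants 1 was lower and the other higher in the library labelled Sema6D-/-. How fragments shared by the variants were divided is the authors' estimate, and its error is not given in the tables.

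**Figure D2:**
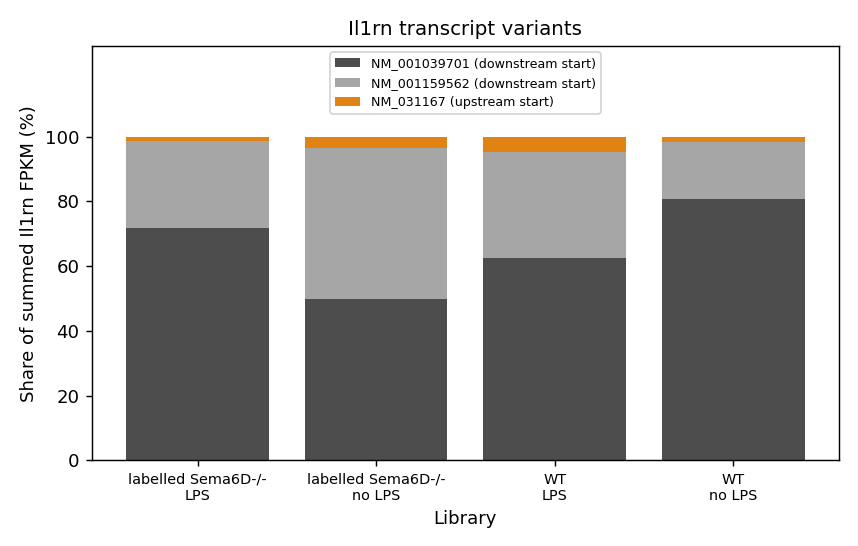
Share of the summed Il1rn FPKM (percent) held by each RefSeq transcript variant in the 4 libraries, as stacked bars; no error is shown, since each group was 1 library. NM_001039701 ranged from 49.9 to 80.7% and the upstream-start variant NM_031167 from 1.29 to 4.91%.

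Of the sensors, Nlrp3, which responds to potassium loss, crystals and membrane damage, had close LPS ratios in both genotypes. It measured 254 FPKM with LPS and 36.2 FPKM without in the libraries labelled Sema6D-/-, and 154 FPKM with LPS and 21.5 FPKM without in WT. The log2 LPS ratios were 2.81 [2.76, 2.87] in the libraries labelled Sema6D-/- and 2.84 [2.78, 2.90] in WT, and their difference of -0.03 [-0.11, 0.05] was not detectable above counting error. The log2 ratio of the libraries labelled Sema6D-/- to WT was likewise close in both states, at 0.72 [0.69, 0.76] with LPS and 0.75 [0.67, 0.83] without.

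Aim2, a sensor of double-stranded DNA in the cytosol, measured 121 FPKM with LPS and 16.9 FPKM without in the libraries labelled Sema6D-/-. In WT it measured 74.8 FPKM with LPS and 13.2 FPKM without. The log2 LPS ratio was 2.84 [2.74, 2.94] in the libraries labelled Sema6D-/- and 2.50 [2.41, 2.60] in WT, a difference of 0.33 [0.20, 0.47]. Rescaled to a common FPKM total, with 1 FPKM added, that difference read 0.12. Between genotypes its log2 ratio was 0.69 [0.63, 0.75] with LPS and 0.35 [0.23, 0.48] without. Nlrp3 exceeded Aim2 by 2.11 and 2.14 times with and without LPS in the libraries labelled Sema6D-/-, and by 2.06 and 1.63 times in WT.

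Nlrc4, which assembles with NAIP proteins that bind bacterial flagellin and secretion system parts, had LPS ratios on opposite sides of 0 in the 2 genotypes. With LPS it measured 39.8 FPKM (2991 fragments) in the library labelled Sema6D-/- and 6.50 FPKM (590 fragments) in WT. Without LPS it measured 8.33 FPKM (844 fragments) in the library labelled Sema6D-/- and 7.22 FPKM (1012 fragments) in WT. The 3 other libraries thus lay within 6.50 to 8.33 FPKM and the LPS library labelled Sema6D-/- stood alone. The log2 LPS ratio was 2.26 [2.15, 2.37] in the libraries labelled Sema6D-/- and -0.15 [-0.30, -0.0043] in WT, at the edge of counting error, and the difference was 2.41 [2.23, 2.59]. Between genotypes the log2 ratio was 2.62 [2.49, 2.75] with LPS and 0.21 [0.07, 0.34] without. Nlrp3 exceeded Nlrc4 by 6.38 times with LPS and 4.34 times without in the libraries labelled Sema6D-/-, against 23.7 times with LPS and 2.98 times without in WT.

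Pycard, which encodes the adaptor ASC, was nearly flat. It measured 20.3 FPKM with LPS and 22.8 FPKM without in the libraries labelled Sema6D-/-, and 31.6 FPKM with LPS and 23.4 FPKM without in WT. The log2 LPS ratio was -0.17 [-0.50, 0.16] in the libraries labelled Sema6D-/- and 0.43 [0.17, 0.69] in WT, and the WT value, computed with 1 FPKM added, turned to -0.09 after rescaling to a common FPKM total. Between genotypes it was -0.64 [-0.96, -0.32] with LPS and -0.04 [-0.31, 0.24] without, and the responses differed by -0.60 [-1.01, -0.19]. Fragment numbers for Pycard (127 to 261) were computed from its coding length alone, which makes the intervals wide. Nlrp3 exceeded Pycard 12.5 times with LPS and 1.59 times without in the libraries labelled Sema6D-/-, and was 4.88 times Pycard with LPS and 0.920 times Pycard without in WT.

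Casp1, the protease that cuts the precursors of IL-1 beta and IL-18, measured 208 FPKM with LPS and 48.9 FPKM without in the libraries labelled Sema6D-/-. In WT it measured 161 FPKM with LPS and 45.4 FPKM without. Its level with LPS was 4.26-fold [4.01, 4.53] that without in the libraries labelled Sema6D-/- and 3.55-fold [3.36, 3.76] in WT, with 95% counting intervals of the fold in brackets. On the log2 scale the responses differed by 0.26 [0.14, 0.38]. Rescaled to a common FPKM total, with 1 FPKM added, that difference read 0.04. Between genotypes its log2 ratio was 0.37 [0.31, 0.43] with LPS and 0.11 [0.0068, 0.21] without.

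Casp4, known in mouse as caspase-11, binds LPS in the cytosol and cuts gasdermin D without a sensor platform. It measured 183 FPKM with LPS and 28.6 FPKM without in the libraries labelled Sema6D-/-, and 127 FPKM with LPS and 20.3 FPKM without in WT. The log2 LPS ratios were 2.68 [2.56, 2.79] in the libraries labelled Sema6D-/- and 2.64 [2.53, 2.76] in WT, and their difference of 0.03 [-0.13, 0.19] was not detectable above counting error. Between genotypes the log2 ratio was 0.53 [0.46, 0.60] with LPS and 0.50 [0.35, 0.64] without. Casp1 was the more abundant caspase in every library, by 1.14 times with LPS and 1.71 times without in the libraries labelled Sema6D-/- and by 1.27 times with LPS and 2.24 times without in WT.

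**Figure D3:**
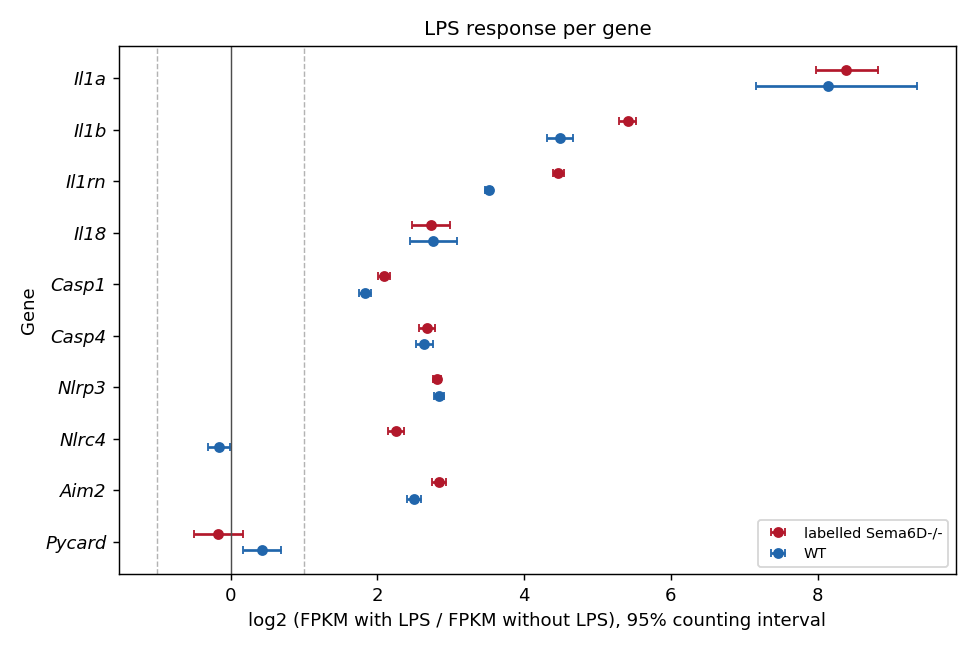
LPS response of each gene as the log2 ratio of FPKM with LPS to FPKM without, for the libraries labelled Sema6D-/- (red) and WT (blue); points are ratios of 1 library to 1 library, bars are 95% counting intervals and dashed lines mark 2-fold. Il1a had the highest ratios in both genotypes, and Nlrc4 stood at 2.26 in the libraries labelled Sema6D-/- and at -0.15 in WT. The Il1rn bars are approximate.

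Counted over the 10 genes with 1 FPKM added, LPS went with higher levels in most. In the libraries labelled Sema6D-/- 9 of 10 were past 2-fold upwards with LPS and 0 downwards, with a median log2 ratio of 2.70. Over all 10398 genes at 1 FPKM or more in either library, 14% were higher and 8.81% lower by that size, with a median of 0.01. In WT 8 of 10 were higher and 0 lower, with a median of 2.56, while over all 10375 genes 10.7% were higher and 4.85% lower, with a median of -0.0011. Pycard in both genotypes and Nlrc4 in WT were the members short of 2-fold. Every member passed the minimum of 1 FPKM in every comparison, Il1a without LPS only through the library labelled Sema6D-/-.

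Between genotypes the counts were smaller. With LPS, 4 of 10 members (Il1a, Il1b, Il18 and Nlrc4) were at least 2-fold higher in the library labelled Sema6D-/- and 0 lower, with a median log2 ratio of 0.70. Over all 10078 genes 3.09% were higher and 3.18% lower, with a median of 0.04. Il18 sat at the edge of that rule (1.03): it read 0.80 when all libraries were brought to the same FPKM total, and 0.97 with the median ratio subtracted. Without LPS only Il1b (1.61) was past 2-fold and 0 were lower, with a median of 0.40, against 2.51% higher and 2.19% lower of 10322 genes and a median of 0.04. With nothing added, 3 members passed without LPS, since Il1a (3.05) and Il18 (1.09) joined Il1b. Over all genes that setting gave 429 higher and 378 lower, against 259 and 226 with 1 FPKM added. Counting the most abundant transcript instead of the sum put Il1rn at -1.14 without LPS.

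For the difference of the LPS responses, libraries labelled Sema6D-/- minus WT, 3 of 10 members were past 2-fold in the positive direction (Il1a, Nlrc4 and Il1b) and 0 in the negative. The median was 0.31, and over all 10680 genes 1.83% were higher and 1.25% lower, with a median of -0.0060. With nothing added, Nlrc4 (2.41) was the only member left, since Il1b read 0.92 and Il1a 0.24. Over all genes 270 were then higher and 412 lower, against 195 and 134 with 1 FPKM added. With the most abundant transcript in place of the sum, Il1rn read 1.82. The 4 comparisons of pairs share libraries with each other and are not independent.

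**Figure D4:**
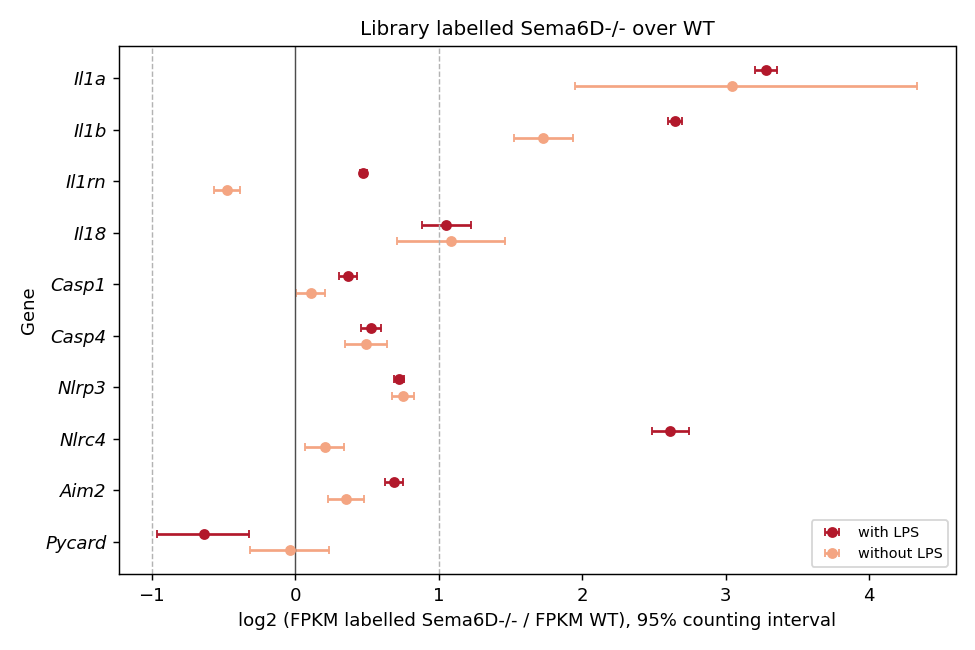
Log2 ratio of FPKM in the library labelled Sema6D-/- to FPKM in WT, with LPS (red) and without LPS (orange); points are ratios of 1 library to 1 library, bars are 95% counting intervals and dashed lines mark 2-fold. Il1a, Il1b and Nlrc4 were at 2.62 or above with LPS, and Il1rn lay above 0 with LPS and below 0 without. The Il1rn bars are approximate.

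**Figure D5:**
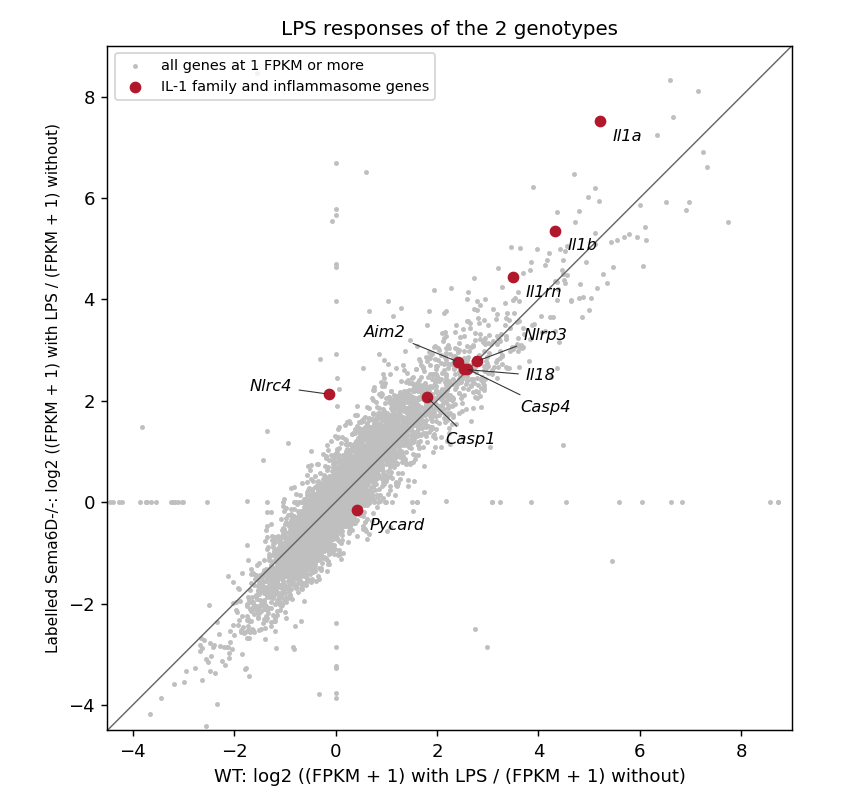
LPS response in the libraries labelled Sema6D-/- (vertical axis) against that in WT (horizontal axis), as log2 ratios with 1 FPKM added; the 10680 genes that reached 1 FPKM somewhere are grey (41 of them fall outside the axes) and the 10 members red. Nlrc4, Il1a, Il1b and Il1rn lie farthest above the diagonal among the members, while Nlrp3, Casp4 and Il18 lie close to it. For Il1a the difference was 2.31 with the added 1 FPKM and 0.24 [-0.85, 1.32] as deposited.

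The scale on which libraries are compared moved these values. For the 6110 genes that reached 5 FPKM throughout, the median log2 LPS ratio was 0.16 in the libraries labelled Sema6D-/- and 0.12 in WT, and rescaling to a common FPKM total turned it to -0.60 in the libraries labelled Sema6D-/- and -0.41 in WT. For the genotype ratio with LPS the median went to -0.17, against 0.07 as deposited. For the difference of the responses it went to -0.20, against 0.03 as deposited. The Pycard response in WT was the only member ratio past counting error that changed sign. The small response differences of Il18 and Casp4 changed sign as well, and neither was distinguishable from 0. In size, 35 member ratios moved by more than their counting error with the common total, and 15 did not. With 1 FPKM added, the response difference went from 0.26 to 0.04 for Casp1 and from 0.35 to 0.12 for Aim2. For Nlrp3 it went from -0.0061 to -0.24. Small response differences thus depended on the scale.

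Of 51 other pathway genes found in the tables, 37 reached 1 FPKM for the LPS comparison in each genotype. In the libraries labelled Sema6D-/- 13 of these had a ratio of 2-fold or more above the library without LPS and 2 as far below it (median 0.39), beside 14% higher and 8.81% lower over all genes. In WT 13 were higher and 3 lower (median 0.31), beside 10.7% and 4.85% over all genes. Between genotypes 3 of 38 were higher and 0 lower with LPS, beside 3.09% and 3.18% over all genes. Without LPS 2 of 36 were higher and 2 lower, beside 2.51% and 2.19%. The response difference was past 2-fold upwards in 3 of 39 and downwards in 0, beside 1.83% and 1.25%.

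Among further ligands, Il1f9, which encodes IL-36 gamma, measured 6.16 FPKM with LPS and 0.649 FPKM without in the libraries labelled Sema6D-/-, against 11.3 FPKM with LPS and 1.93 FPKM without in WT. It was higher in WT in both states, unlike Il1a and Il1b. Il33, an alarmin, was listed at 0 without LPS in both genotypes and measured 2.58 FPKM with LPS in the library labelled Sema6D-/- and 3.41 FPKM in WT. Il1f6, which encodes IL-36 alpha, was also listed at 0 without LPS. With LPS it was higher in the library labelled Sema6D-/-, at 1.59 FPKM against 0.437 FPKM in WT. Il1f5, Il1f8 and Il1f10 were listed at 0 in all 4 libraries.

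Il18bp, a secreted protein that neutralises IL-18, measured 117 FPKM with LPS and 14.7 FPKM without in the libraries labelled Sema6D-/-, and 74.5 FPKM with LPS and 19.1 FPKM without in WT. Its log2 LPS ratio with 1 FPKM added was 2.92 in the libraries labelled Sema6D-/- and 1.91 in WT. As with Il1rn, the genotype ratio was positive with LPS (0.65) and negative without (-0.36). The IL-1 receptor Il1r1 stayed at or below 0.820 FPKM in all libraries, while the shared receptor chain Il1rap measured 11.4 FPKM with LPS in the library labelled Sema6D-/- and 5.84 FPKM in WT, with log2 LPS ratios of 1.34 in the libraries labelled Sema6D-/- and 1.01 in WT. Il18rap, a chain of the IL-18 receptor, had an LPS ratio of 2.06 in the libraries labelled Sema6D-/- and 1.19 in WT. Il1r2, a decoy receptor, had 0.39 in the libraries labelled Sema6D-/- and 0.76 in WT.

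Downstream of the receptor, the adaptor Myd88 had log2 LPS ratios of 2.19 in the libraries labelled Sema6D-/- and 2.07 in WT. The kinase Irak2 had 2.13 in the libraries labelled Sema6D-/- and 2.07 in WT, and the inhibitory Irak3 had 0.94 in the libraries labelled Sema6D-/- and 1.25 in WT. The kinase Irak4 lay below 0 in both, at -0.66 in the libraries labelled Sema6D-/- and -0.38 in WT. Over the 8 genes of this group the responses of the genotypes differed by -0.30 to 0.20.

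Other sensors behaved differently from each other. Mefv, which encodes pyrin, measured 118 FPKM with LPS and 22.8 FPKM without in the libraries labelled Sema6D-/-, against 72.0 FPKM with LPS and 8.61 FPKM without in WT. Its log2 LPS ratio was 2.31 in the libraries labelled Sema6D-/- and 2.93 in WT. Naip2, whose protein recognises a secretion system rod and works with NLRC4, measured 27.0 and 27.2 FPKM with and without LPS in the libraries labelled Sema6D-/-, and 25.4 and 17.4 FPKM in WT. It did not share the high level of Nlrc4 in the LPS library labelled Sema6D-/-. Nlrp1b measured 6.99 and 8.17 FPKM with and without LPS in the libraries labelled Sema6D-/-, and 0.664 and 3.27 FPKM in WT. Nlrp1a was on the other side, at 0.640 and 0.542 FPKM with and without LPS in the libraries labelled Sema6D-/-, against 1.57 and 2.38 FPKM in WT. The Nlrp1 genes, like the Naip genes, are close copies, and the division of reads among them is uncertain.

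Gsdmd, the pore-forming substrate of Casp1 and Casp4, measured 108 FPKM with LPS and 55.8 FPKM without in the libraries labelled Sema6D-/-, and 89.3 FPKM with LPS and 45.9 FPKM without in WT. Gsdme, another gasdermin, was lower with LPS in both genotypes, at -1.25 in the libraries labelled Sema6D-/- and -1.15 in WT. Of the regulators, Tnfaip3, which encodes the inhibitor A20, had an LPS ratio of 4.74 in the libraries labelled Sema6D-/- and 3.85 in WT. The ATP-gated channel P2rx7, a trigger of NLRP3, had -1.28 in the libraries labelled Sema6D-/- and -0.67 in WT.

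Genes of similar pattern were sought by the distance between profiles of log2(FPKM + 1) over the 4 libraries, each centred on its mean, among 7794 protein-coding genes with at least 5 FPKM somewhere. Nearest to Il1a were Cxcl9 (distance 0.97), Nos2, Il27, Il6 and Cd69. Nearest to Il1b were Slc7a2 (0.74), Ccrl2, Tnf, Il12b and Cd40, and Il1a lay farther from it (1.65) than these 5. Il1rn was nearest to Lipg (0.62), Il18 to Fam241a (0.09) and Casp1 to Arl4a (0.08). Nlrp3 lay close to Atp10a (0.09) and Gch1 (0.10), Aim2 to Whamm (0.07), and Casp4 to Mafk (0.07), with Aim2 its nearest member (0.15). For Nlrc4 the nearest gene, Bckdhb, was at 0.50, and the nearest member, Casp1, at 1.74. Pycard was nearest to Slc25a10 (0.09). With 4 libraries, many genes reach short distances, and these values describe the libraries only.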

How the data were processed

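The deposited tables hold 1 FPKM value (fragments per kilobase of transcript, made by the authors) for each of 34487 RefSeq transcripts in each of 4 libraries, prepared with a stranded mRNA kit per the labels' protocols. Cuffnorm 2.2.1, TopHat2 2.0.13, SAMtools 0.1.19, Bowtie2 2.2.3 and mouse build mm9 are named, per the submitters' processing notes; options, annotation version, use of strand and scaling between libraries are not given in the sources used here.

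Symbols were assigned to 34163 transcripts through RefSeq (GRCm38) and to 187 more through GENCODE vM21, and 137 had none. Transcripts were summed per gene. The size rule was 2-fold on log2(FPKM + 1), for genes that reached 1 FPKM in either of the libraries compared. With 1 library per group no test, SD or p-value was computed.

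Fragment numbers were estimated from the low values. Their product with effective length (GENCODE length minus a fitted fragment length of 200 to 220 bases) fell within 0.1 of whole multiples of 1 step for 75.8 to 76.7% of low values, against 20% by chance. GENCODE lengths may differ from the authors' transcripts, so fragment numbers are approximate. Ratio intervals are exact binomial (Clopper-Pearson) and those of response differences normal on the log scale. For Il1rn both use the pooled fragments of its transcripts and are approximate.

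Named genes were all members, up to 4 per pathway group and comparison by size of ratio, the 5 nearest patterns per member and the neighbours of 2 loci. Members and lists were chosen with earlier results of these data known. Promoter windows came from RefSeq for 10 of 10 members and were used where within 50 bases of the GENCODE start (9 windows, 8 genes); motifs were chosen after the values were seen. Scripts ran in Python 3.11.15 with NumPy 2.4.6, pandas 2.3.3 and SciPy 1.17.1, and were tested on simulated data. Alternatives were another added value, other filters, 2 rescalings and the most abundant transcript.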

Additional observations from a re-analysis of the deposited data

Results flagged for a closer look

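In 2 genes the libraries of the 2 genotypes lay on opposite sides of 0 in their LPS ratios, each on 1 library per group, so the difference was not tested against replicates. Nlrc4 had a log2 LPS ratio of 2.26 in the libraries labelled Sema6D-/- and -0.15 in WT. Pycard had -0.17 in the libraries labelled Sema6D-/- and 0.43 in WT. After rescaling to a common FPKM total, with 1 FPKM added, both Pycard ratios lay below 0. They were then -0.88 in the libraries labelled Sema6D-/- and -0.09 in WT. The Pycard value in the libraries labelled Sema6D-/- has a counting interval that spans 0. Over all genes the median log2 LPS ratio with 1 FPKM added was 0.01 in the libraries labelled Sema6D-/- and -0.0011 in WT. How many of all genes lay on opposite sides of 0 was not counted, so these 2 genes have no background beside them.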

How the results depend on the processing

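Counts of members past 2-fold kept within 1.5 times of the reported count for all 10 counts with no filter, with a minimum of 5 FPKM and after centring on the median. With 0.1 added in place of 1, 3 members were higher in the library labelled Sema6D-/- without LPS and 1 in the difference of responses. With nothing added, an alternative chosen after seeing the data, these were again 3 and 1. Over all genes the same 2 counts were 406 and 294 with 0.1 added and 429 and 270 with nothing added, against 259 and 195. Rescaling to a common total gave 2 members higher in the library labelled Sema6D-/- without LPS, beside 283 of all genes, against 259 as deposited. The most abundant transcript gave 1 member lower there, beside 303 of all genes, against 226 with the sum. No member ratio past 2-fold changed sign under any alternative run, and the causes were not tested beyond what each alternative's construction shows. Over all genes the common total changed the split: with LPS, 745 were higher and 3008 lower, against 1453 and 916 as deposited, in the libraries labelled Sema6D-/-, and 713 higher and 1502 lower, against 1114 and 503, in WT. Between genotypes with LPS it gave 188 higher and 410 lower, against 311 and 320, and for the response difference 123 and 222, against 195 and 134. Pairing by replicate number was not possible because each group holds 1 library, and for the same reason no library could be left out. An additive fit over the 4 libraries would pair them by genotype and by state, with the difference between the responses as its error. Such a fit was not run. Depth limits Il1a without LPS (48 fragments in the library labelled Sema6D-/- and 8 in WT).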

Other observations

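The genes beside the Il1a and Il1b loci on chromosome 2 did not share their levels. Ckap2l, next to Il1a, measured 11.1 FPKM with LPS and 8.34 FPKM without in the libraries labelled Sema6D-/-, and 8.74 FPKM with LPS and 7.04 FPKM without in WT. The non-coding genes that overlap the loci, Gm14023 at Il1a and Il1bos at Il1b, stayed at or below 0.348 FPKM, each highest in the LPS library labelled Sema6D-/-. Since the use of strand in the counting is not given, reads of a gene and of an overlapping partner on the other strand cannot be told apart. Casp12, the neighbour of Casp4 on chromosome 9, measured 0.826 FPKM with LPS in the library labelled Sema6D-/- and 0.515 FPKM in WT, far below Casp1 and Casp4 beside it.

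Other motifs searched in the 9 member windows were the PU.1 core GAGGAA (in 4 genes, Casp1, Il1a, Nlrp3 and Pycard, and in 23.3% of all windows), the C/EBP site TTGCNNAA (in Nlrc4 and Pycard, and in 9.56% of all windows) and an interferon-stimulated response element core (in 0 member windows and in 2.98% of all windows), each on both strands.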
